A study of Homo sapiens with 6 samples.

Results

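NRF2, its brake KEAP1-CUL3 and the antioxidant and detoxifying genes of the same pathway were measured in CAL-27, an established line of human tongue squamous carcinoma cells. The set holds 36 genes, picked by name as NRF2 and its partners, glutathione and thioredoxin genes, NADPH-supplying enzymes, aldo-keto and other carbonyl reductases, quinone, xenobiotic, heme and iron genes, and superoxide and peroxide enzymes. A gene entered when the RefSeq accession of a probe matched its symbol, which gave 35 of the 36 genes and 44 probes, among 16821 genes with a tested probe. AKR1C2 was the gene with no matching probe. Of the 35 genes, 8 had more than 1 probe.

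CAL-27 cells stably transduced to knock down XBP-1s by shRNA (shXBP-1s, n = 3) were compared with CAL-27 cells carrying a negative-control shRNA (shCtrl, n = 3), on 6 1-colour Agilent whole-genome arrays. XBP-1s is the spliced form of the transcription factor XBP-1, made when the endoplasmic reticulum sensor IRE1α cuts the XBP-1 mRNA. Both groups are the same line and differ by the hairpin, and whether the 3 samples of a group came from separate transductions or cultures is not given in the sources used here. The p-values then measure the spread between these samples, which may be technical.

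NRF2, encoded by NFE2L2, is a transcription factor that KEAP1 and the ubiquitin ligase scaffold CUL3 mark for destruction in unstressed cells. Oxidants and electrophiles disable KEAP1, after which NRF2 pairs with a small MAF protein and binds antioxidant response elements in the promoters of genes for glutathione synthesis, thioredoxin, NADPH supply and detoxification. Squamous carcinomas are known for frequent alterations of this pathway. NRF2 is controlled mainly at the level of its protein, which an mRNA array does not measure.

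The targeted gene was checked first. XBP1 signal was 2536, 2743 and 2766 on the shCtrl arrays and 695, 617 and 551 on the shXBP-1s arrays, a log2 fold change of -2.39 (limma adjusted p = 2.81e-07), and how the probe reads spliced and unspliced XBP1 mRNA was not determined here. Signals are the scanner software's intensities after background subtraction, and the shXBP-1s arrays were brighter, with 75th percentiles of 792 to 983 against 687 to 761. Each log2 value below is therefore the log2 signal minus the 75th percentile of its array, and each log2 fold change is the shXBP-1s mean minus the shCtrl mean. The file headers give 2 scans, scan 1 with shCtrl replicates 2 and 3 and scan 2 with shCtrl replicate 1 and the 3 shXBP-1s samples, so a within-scan value sets the 3 shXBP-1s arrays against 1 shCtrl array. The squamous epithelium markers KRT5, KRT14, KRT17, TP63, CDH1, SFN, DSG3 and EPCAM were well above background on all 6 arrays. Of these 8 markers 6 rose and 0 fell, where 18.9% of all tested genes rose and 27.5% fell. Their summed unscaled signal was 74823 to 80170 on the shCtrl arrays and 126544 to 133211 on the shXBP-1s arrays. The marker sums here and below are not corrected for the brighter shXBP-1s arrays. After scaling, CDH1 (log2 fold change 0.13) and EPCAM (0.013) did not pass. Of 10 measured markers of differentiating squamous epithelium 5 rose and 0 fell, with sums of 3803 to 4115 in shCtrl and 5108 to 5616 in shXBP-1s. KRT10, which did not pass, gave 2993 to 3204 of the sum in shCtrl and 3248 to 3800 in shXBP-1s. By brightest probe SPRR1B rose 13.0-fold and SPRR2A 16.2-fold, while IVL, SPRR1A and SPRR3 rose less than 2-fold. The dimmer probes gave 8.22-fold for SPRR1A and 1.91-fold for SPRR2A. Of 5 leukocyte markers, all of them above background, 1 rose and 2 fell, and they summed to 3409.5 to 5198 in shCtrl and 3423 to 4246 in shXBP-1s, while of 5 tested fibroblast markers 2 rose and 2 fell and COL3A1 was not above background on any array. Endothelial markers, 4 in all, had 0 calls and summed to 164 to 189 in shCtrl and 206 to 273 in shXBP-1s. The part of these marker shifts in the values below was not tested.

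The members moved in both directions. With each gene read by its brightest probe, 7 of the 35 genes rose, 11 fell and 17 did not pass. The threshold was an adjusted p below 0.05, from limma with the Benjamini-Hochberg method over all 27624 tested probes. That is 20% higher and 31.4% lower, against 18.9% higher and 27.5% lower over all 16821 tested genes. The genes that rose were AKR1B10, AKR1C1, SOD2, AKR1B1, ME1, OSGIN1 and GPX2, although OSGIN1 turned lower under normexp, another background correction based on the median spot signals, and GPX2 under normexp with either centring. The genes that fell were SLC7A11, EPHX1, NQO1, HMOX1, GPX4, FTH1, CBR1, UGDH, GSTM3, PRDX1 and GSR. Of these, GPX4, FTH1, CBR1, UGDH, GSTM3, PRDX1 and GSR turned higher when normexp values were centred on the median. Centring shifts every log2 fold change from its value under normexp alone by the same amount, as it subtracts a single value per array. GPX4 went from -0.24 to 0.091 and SLC7A11 from -1.04 to -0.70.

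Most changes were small. AKR1B10 was the 1 member that rose at least 2-fold and SLC7A11 the 1 that fell at least 2-fold, against 2.3% and 2.88% of all genes. Under normexp the members past 2-fold were SOD2 (1.08) and SLC7A11 (-1.04), and AKR1B10 was at 0.18 and did not pass. Of all 27624 tested probes 473 passed at least 2-fold under normexp, against 1354 under the main settings. The median log2 fold change of the members was -0.047 and that of all genes was -0.041, and the median size of the change was 0.204 against 0.230. The median of the members moved with the scaling. It was 0.012 under normexp, where all tested probes had -0.41, and 0.35 with normexp centred on the median, where all tested probes had -0.079. All tested probes include the dimmer probes of a gene, and the median of all genes by brightest probe was not computed under those scalings. The groups did not overlap for 18 of the 35 members (51.4%), against 56.5% of all genes. By probe, 9 of the 44 rose, 14 fell and 21 did not pass, where 18.4% of all tested probes rose and 23.3% fell. Higher probes were 44.2% of all called probes here and 58.0% with normexp centred on the median. On the unscaled signal, 27 of the 35 members had a log2 ratio above 0, 17 were higher without overlap, and SLC7A11 and HMOX1 were the 2 that were lower without overlap. The shXBP-1s arrays were brighter as a whole, and the share of all genes on the unscaled signal was not computed. The counts of higher members are therefore no result about the members.

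**Figure D1:**
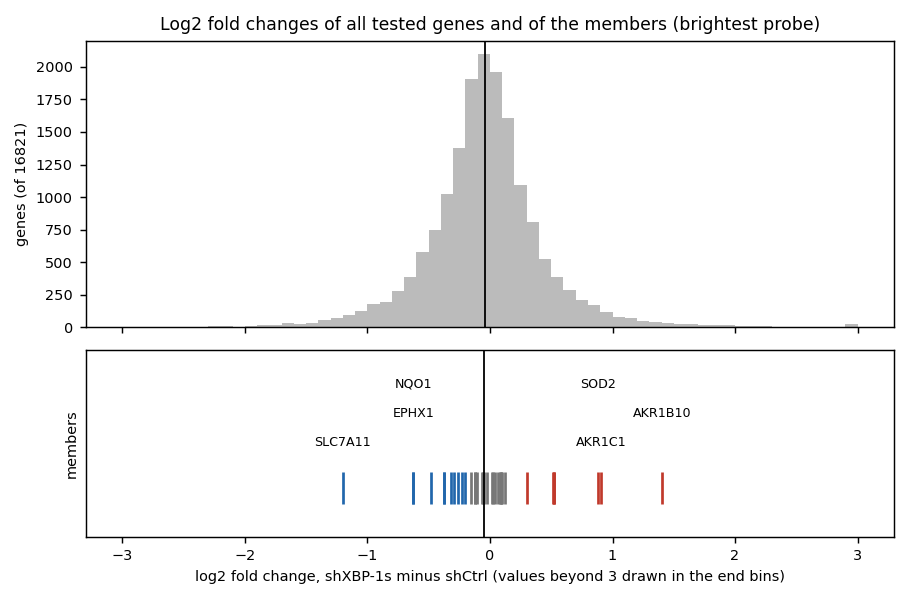
Histogram of the log2 fold change (shXBP-1s minus shCtrl) of the 16821 tested genes, with the 35 members below as ticks (red rose, blue fell, grey did not pass) and vertical lines at the medians. The members lie on both sides of 0 and their median of -0.047 is next to the -0.041 of all genes under the scaling shown (0.35 against -0.079 for all tested probes with normexp centred on the median), with AKR1B10 and SLC7A11 beyond 1 in size.

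**Figure D2:**
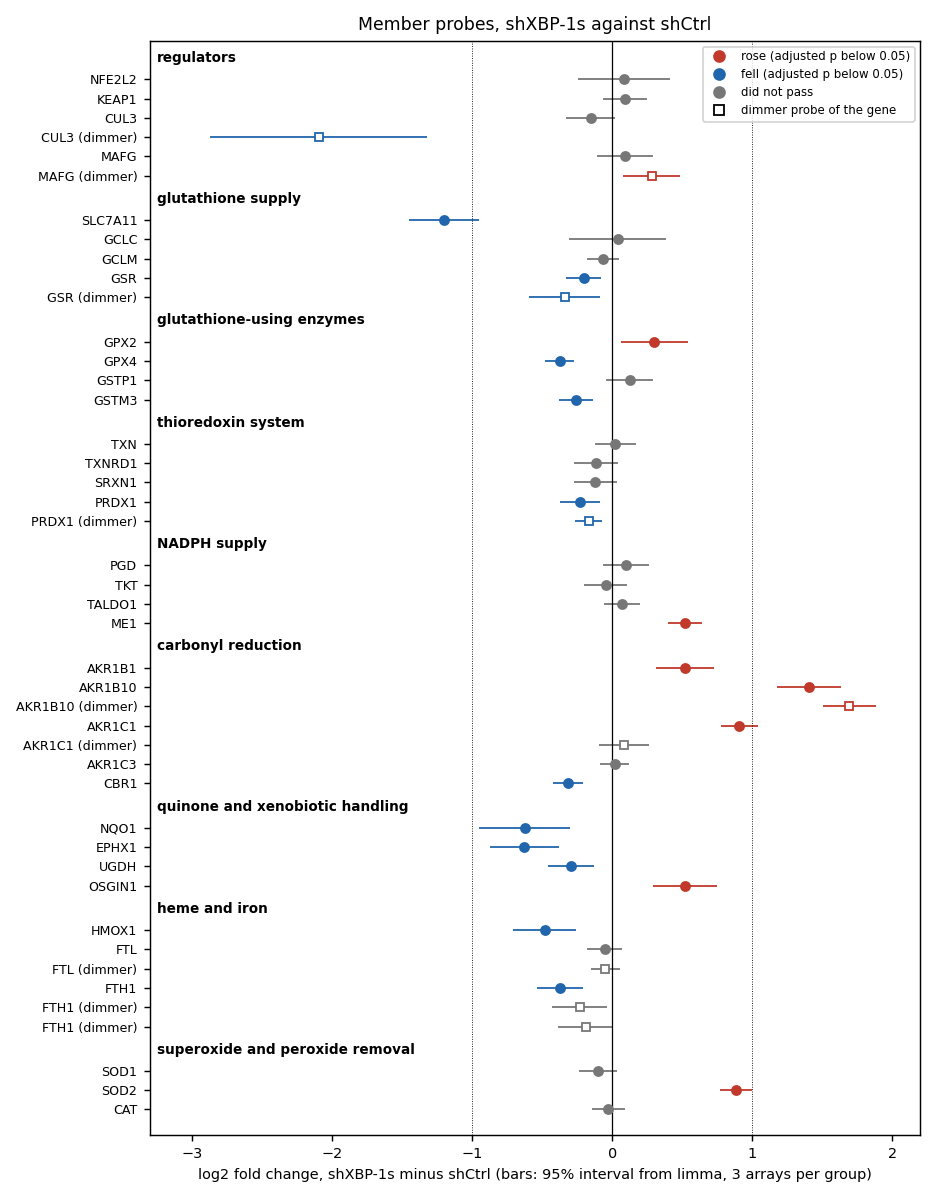
Log2 fold change of each of the 44 member probes with its 95% interval from limma, grouped by role (red rose, blue fell, grey did not pass, open squares a dimmer probe of the gene, dotted lines 2-fold). Carbonyl reduction holds 3 of the 7 genes that rose, where 18.9% of all tested genes rose. Of the regulators only the dimmer CUL3 and MAFG probes passed, and that MAFG probe turned lower under normexp.

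The antioxidant response element was looked up in the promoters, since it is the sequence that NRF2 binds. RefSeq promoters of GRCh38.p14 (250 bases before to 50 after the start) were at hand for 29 of the members, and SLC7A11, GSR, PRDX1, AKR1B10, HMOX1, FTH1 and SOD1 were not among them. The core TGACNNNGC, on either strand, was found for 9 of the 29 (31%), against 16.1% of 27305 genes in the same table. By window, as a gene can have several, it was in 10 of the 42 member windows and in 13.3% of all 35116. These 9 were ME1 and GPX2, which rose, CBR1 and EPHX1, which fell, and KEAP1, GCLM, GSTP1, TXNRD1 and PGD, which did not pass, where GPX2 turned lower under normexp and CBR1 higher with normexp centred on the median. The longer match TGACTCAGC, which is one form of the core, stood in the promoters of ME1 and GSTP1 and in 0.689% of all genes. The unfolded protein response element core TGACGTG was in none of the 29 and in 2.4% of all genes. A match is a description of letters and not a bound site. The members were picked by name as genes of the NRF2 pathway, so the share with a match is no test of the set. Elements outside the window were not looked for. The promoters of ME1 and GPX2, which rose here (GPX2 not under normexp), and of GCLM and GSTP1, which did not pass, are given 5′ to 3′ in the direction of the gene, with each match to the core in capitals.
ME1 (chr6:83431002-83431301, minus strand): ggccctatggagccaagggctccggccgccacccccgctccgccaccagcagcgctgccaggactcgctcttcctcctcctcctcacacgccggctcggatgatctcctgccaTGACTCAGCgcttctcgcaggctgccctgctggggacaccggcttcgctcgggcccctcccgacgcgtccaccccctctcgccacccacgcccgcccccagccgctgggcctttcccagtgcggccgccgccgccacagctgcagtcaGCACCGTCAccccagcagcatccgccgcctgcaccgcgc
GPX2 (chr14:64942696-64942995, minus strand): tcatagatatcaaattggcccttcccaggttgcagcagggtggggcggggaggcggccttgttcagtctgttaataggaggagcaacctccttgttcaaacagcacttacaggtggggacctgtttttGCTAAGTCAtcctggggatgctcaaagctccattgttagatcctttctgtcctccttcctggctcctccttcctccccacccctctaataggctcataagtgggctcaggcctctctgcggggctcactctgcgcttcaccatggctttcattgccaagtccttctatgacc
GCLM (chr1:93909381-93909680, minus strand): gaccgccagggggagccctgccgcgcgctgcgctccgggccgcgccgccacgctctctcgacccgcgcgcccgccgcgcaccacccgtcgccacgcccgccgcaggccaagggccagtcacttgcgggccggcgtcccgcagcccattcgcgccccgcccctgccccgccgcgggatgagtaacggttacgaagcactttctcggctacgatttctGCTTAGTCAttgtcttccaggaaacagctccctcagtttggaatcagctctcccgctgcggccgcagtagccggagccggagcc
GSTP1 (chr11:67583562-67583861, plus strand): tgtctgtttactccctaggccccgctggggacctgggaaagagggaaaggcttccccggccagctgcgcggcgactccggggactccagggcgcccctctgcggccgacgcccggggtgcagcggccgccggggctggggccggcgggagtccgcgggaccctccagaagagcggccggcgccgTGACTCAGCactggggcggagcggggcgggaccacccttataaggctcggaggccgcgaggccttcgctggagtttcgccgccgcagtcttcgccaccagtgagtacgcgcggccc

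In ME1 the match farther upstream began 137 bases before the start and a second match lay 12 bases into the transcript. In GPX2 the match began 122 bases before the start, in GCLM 34 bases and in GSTP1 66 bases. The 4 genes with a shown promoter thus split between calls, with log2 fold changes of 0.52 for ME1, 0.30 for GPX2, -0.063 for GCLM and 0.12 for GSTP1. GPX2 turned lower under normexp, and GCLM turned higher under quantile normalization, the deposited log2 values and normexp without quantile normalization. GSTP1 passed as higher in 3 of the 19 other settings.

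None of the 4 regulator genes passed by its brightest probe, where 18.9% of all tested genes rose and 27.5% fell. The brightest probes of CUL3 and MAFG each gained a call in 1 of the 19 other settings, CUL3 as lower and MAFG as higher. NFE2L2, which encodes NRF2 itself, was dim, with signals of 45.1, 43.1 and 35.99 on the shCtrl arrays and 62.5, 57.5 and 41.1 on the shXBP-1s arrays (probe A_33_P3225600, NM_006164). Its groups overlapped, and the log2 fold change was 0.086 ± 0.14 (SE, adjusted p = 0.666) with a 95% interval of -0.24 to 0.42. KEAP1, the sensor that holds NRF2 for degradation, had log2 values of 0.51, 0.37 and 0.37 in shCtrl and 0.62, 0.49 and 0.42 in shXBP-1s and a log2 fold change of 0.091 ± 0.068 (SE, adjusted p = 0.323). Its within-scan difference was -0.0048.

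CUL3, the scaffold of the ligase, gave different answers by probe. Its bright probe (probe A_33_P3321150, NM_003590) had signals of 3793, 4527 and 4126 on the shCtrl arrays and 4532, 4519 and 4437 on the shXBP-1s arrays, overlapping groups and a log2 fold change of -0.15 ± 0.075 (SE, adjusted p = 0.144). Its dim probe (probe A_23_P209288, NM_003590) had signals of 23.9, 24.8 and 23.5 on the shCtrl arrays and 10.5, 8.82 and 3.38 on the shXBP-1s arrays, with no overlap, and fell by 2.10 on the log2 scale (adjusted p = 0.00149). It exceeded background clearly on 2 of the 3 shXBP-1s arrays, so its fold change rests on signals near background, and under normexp it was -1.27 (adjusted p = 0.429). With the mean over both probes CUL3 had a log2 fold change of -1.12 (adjusted p = 2.35e-04), a call that the bright probe alone did not give.

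MAFG, a small MAF partner of NRF2, also differed by probe. The brighter probe (probe A_23_P78209, NM_002359) had log2 values of 0.81, 1.16 and 1.08 in shCtrl and 1.08, 1.13 and 1.12 in shXBP-1s and a log2 fold change of 0.094 ± 0.087 (SE, adjusted p = 0.425). There shCtrl replicate 1 lay apart below the other 5 arrays, and the within-scan difference was 0.30. The dimmer probe (probe A_33_P3416767, NM_032711) rose by 0.28 ± 0.088 on the log2 scale (SE, adjusted p = 0.0350), a direction that turned under normexp (-0.22). With the mean over both probes MAFG rose by 0.19 (adjusted p = 0.0211).

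**Figure D3:**
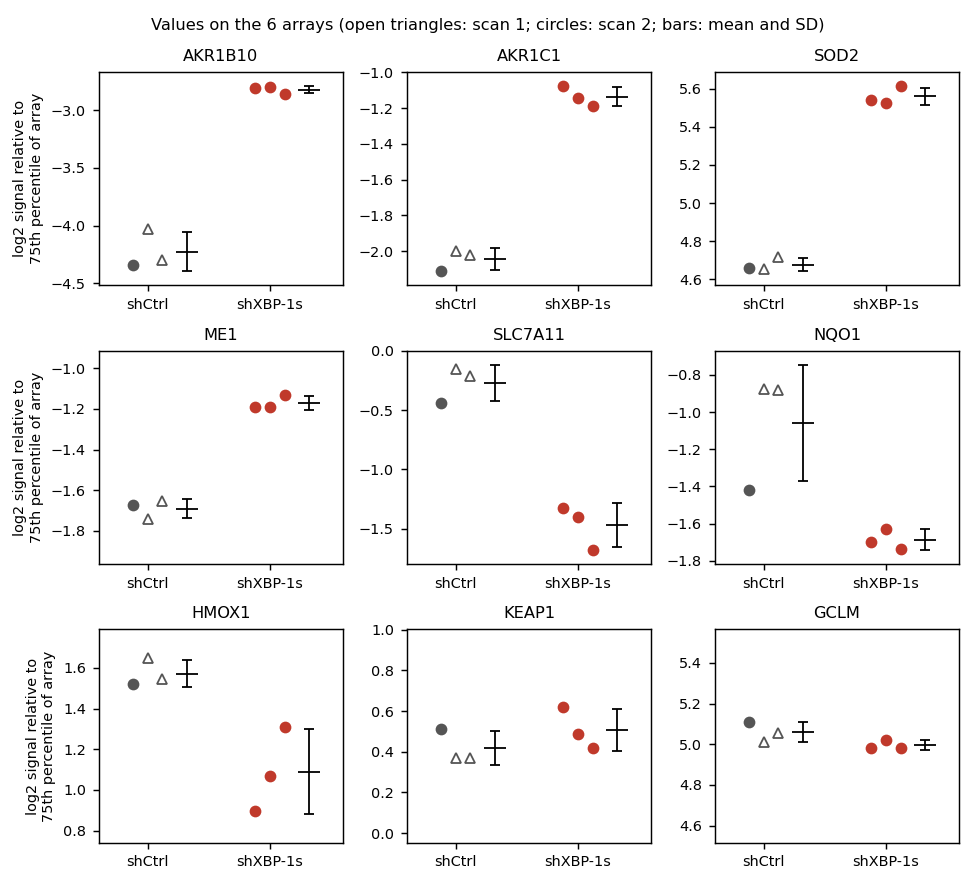
Log2 signal relative to the 75th percentile of the array for the brightest probe of 9 members on the 6 arrays (open triangles scan 1, circles scan 2, bars mean and SD of 3 arrays, each panel with its own axis range). AKR1B10, AKR1C1, SOD2 and ME1 are higher and SLC7A11 and HMOX1 lower on every shXBP-1s array, shCtrl replicate 1 of NQO1 lies between the scan 1 controls and the shXBP-1s arrays, and KEAP1 and GCLM overlap.

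Among the genes of glutathione supply, the cystine importer fell and the synthesis enzymes did not pass. SLC7A11, the transport subunit of the cystine-glutamate exchanger (probe A_33_P3242623, NM_014331), had signals of 507, 684 and 652 on the shCtrl arrays and 391, 339 and 248 on the shXBP-1s arrays. Every shXBP-1s array lay below every shCtrl array, also before scaling. SLC7A11 fell by 1.20 ± 0.11 on the log2 scale (SE, adjusted p = 7.20e-05), 2.3-fold, and passed under each scaling tried, with -1.03 within the scan. Under normexp centred on the median, the scaling that moved it most, it was -0.70.

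GCLC, the catalytic subunit of glutamate-cysteine ligase, the first step of glutathione synthesis, had log2 values of -0.085, 0.22 and -0.37 in shCtrl and -0.23, -0.013 and 0.13 in shXBP-1s. The shCtrl arrays spanned all the shXBP-1s arrays, and the log2 fold change was 0.038 ± 0.15 (SE, adjusted p = 0.861) with an interval of -0.31 to 0.38. GCLM, the modifier subunit of the same enzyme, had signals of 23726, 24560.3 and 25148 on the shCtrl arrays and 31062, 29079 and 25057 on the shXBP-1s arrays, a log2 fold change of -0.063 ± 0.049 (SE, adjusted p = 0.342) and an interval of -0.18 to 0.050. This interval bounds GCLM more tightly than GCLC. GSR, glutathione reductase, fell on both probes, with log2 fold changes of -0.20 ± 0.054 (SE, adjusted p = 0.0177) and -0.34 ± 0.11 (SE, adjusted p = 0.0386), and on the brighter probe turned to 0.022 with normexp centred on the median. The dimmer GSR probe lost its call in 13 of the 19 other settings. The GSR difference within the scan was -0.15 on the brighter probe, and the call was lost with the scan as a block (adjusted p = 0.168) and without shCtrl replicate 3 or shXBP-1s replicate 2 (adjusted p from 0.0734 to 0.0860).

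Of the 4 enzymes that use glutathione, 1 rose, 2 fell and 1 did not pass, where 18.9% of all tested genes rose and 27.5% fell. The sign of each of the 3 called turned under 1 or 2 of the normexp settings. GPX2, a glutathione peroxidase of epithelia, had log2 values of -3.93, -3.94 and -3.84 in shCtrl and -3.41, -3.66 and -3.74 in shXBP-1s. Its rise of 0.30 ± 0.10 (SE, adjusted p = 0.0492) was close to the threshold, turned to -0.49 under normexp, and passed in 1 of the 6 fits that left out 1 array, that without shXBP-1s replicate 3 (adjusted p up to 0.129 in the others). GPX4, the peroxidase that reduces lipid hydroperoxides in membranes, had log2 values of 3.39, 3.40 and 3.45 in shCtrl and 2.99, 3.06 and 3.07 in shXBP-1s, with no overlap. GPX4 fell by 0.38 ± 0.045 on the log2 scale (SE, adjusted p = 3.20e-04), with -0.36 within the scan and 0.091 with normexp centred on the median, where it turned. GSTM3, a mu-class glutathione transferase, fell by 0.26 ± 0.053 on the log2 scale (SE, adjusted p = 0.00500), with -0.22 within the scan, where the call was lost (adjusted p = 0.0570), and turned to 0.18 with normexp centred on the median. GSTP1, the pi-class transferase, had signals of 52172, 61488 and 58572 on the shCtrl arrays and 76562, 76184 and 73450.3 on the shXBP-1s arrays and a log2 fold change of 0.12 ± 0.073 (SE, adjusted p = 0.217). GSTP1 passed as higher in 3 of the 19 other settings, for example with quantile normalization after normexp (0.18, limma adjusted p = 0.00855).

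In the thioredoxin system the groups of TXN, TXNRD1 and SRXN1 overlapped and none passed, where the groups did not overlap for 56.5% of all genes. Each of these genes gained a call in 1 of the 19 other settings. TXN, thioredoxin itself, had log2 values of 5.53, 5.52 and 5.56 in shCtrl and 5.44, 5.58 and 5.65 in shXBP-1s and a log2 fold change of 0.023 ± 0.064 (SE, adjusted p = 0.801). TXNRD1, the reductase that recharges it, had -0.12 ± 0.068 (SE, adjusted p = 0.201), and SRXN1, which repairs overoxidized peroxiredoxins, had -0.12 ± 0.067 (SE, adjusted p = 0.190). Within the scan TXN was at 0.033, TXNRD1 at -0.10 and SRXN1 at -0.24. PRDX1, an abundant cytosolic peroxiredoxin, had log2 values of 5.41, 5.51 and 5.47 in shCtrl and 5.14, 5.25 and 5.32 in shXBP-1s on the brighter of its probes, with no overlap. PRDX1 fell by 0.23 ± 0.062 on the log2 scale (SE, adjusted p = 0.0194) and by 0.17 ± 0.043 (SE, adjusted p = 0.0140), and both probes turned higher with normexp centred on the median (0.20 and 0.29). The brighter probe was at -0.18 within the scan and passed in 3 of the 6 fits that left out 1 array, and not without shCtrl replicate 2, shCtrl replicate 3 or shXBP-1s replicate 2 (adjusted p from 0.0642 to 0.0702).

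Of the genes that supply NADPH, ME1 rose and the pentose phosphate enzymes did not pass. ME1, the cytosolic malic enzyme (probe A_23_P8196, NM_002395), had signals of 216, 227 and 240.0 on the shCtrl arrays and 430.5, 392.1 and 361 on the shXBP-1s arrays. The groups did not overlap, and ME1 rose by 0.52 ± 0.052 on the log2 scale (SE, adjusted p = 1.29e-04), 1.43-fold, with 0.50 within the scan. It was higher under each scaling and did not pass under normexp (0.22). PGD, phosphogluconate dehydrogenase, had a log2 fold change of 0.10 ± 0.072 (SE, adjusted p = 0.313). TKT, transketolase, had -0.047 ± 0.067 (SE, adjusted p = 0.611) and TALDO1, transaldolase, 0.070 ± 0.057 (SE, adjusted p = 0.366). The intervals were -0.068 to 0.26 for PGD, -0.20 to 0.11 for TKT and -0.062 to 0.20 for TALDO1.

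Of the 5 carbonyl reductases measured, 3 rose and 1 fell, where 18.9% of all tested genes rose and 27.5% fell. AKR1B10 had the largest rise of the members except under the 3 normexp settings, where SOD2 did. AKR1B10, an aldo-keto reductase that reduces aldehydes and retinal, had signals of 33.8, 46.6 and 38.3 on the shCtrl arrays and 141, 128 and 109 on the shXBP-1s arrays on its brighter probe (probe A_23_P93641, NM_020299). The second probe (probe A_24_P129341, NM_020299) read 30.6, 39.0 and 33.8 on the shCtrl arrays and 149, 134 and 121 on the shXBP-1s arrays. On both probes the lowest shXBP-1s signal was above the highest shCtrl signal. AKR1B10 rose by 1.41 ± 0.10 on the log2 scale (SE, adjusted p = 1.98e-05) and by 1.69 ± 0.083 (SE, adjusted p = 4.44e-06), 2.65-fold and 3.23-fold, with 1.53 and 1.76 within the scan. These are dim probes, and under normexp the log2 fold changes were 0.18 and 0.20 and did not pass (adjusted p = 0.740 and 0.731), while with quantile normalization after normexp they were 0.67 and 0.76 and passed.

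AKR1B1, aldose reductase, is a relative of AKR1B10 and rose as well. Its signals were 6645, 8959.7 and 8119 on the shCtrl arrays and 16363, 13967 and 11040.4 on the shXBP-1s arrays, and the log2 fold change was 0.52 ± 0.089 (SE, adjusted p = 0.00213), with 0.67 within the scan. AKR1B1 did not pass with normexp centred on the median (0.98, limma adjusted p = 0.270). AKR1C1, a hydroxysteroid dehydrogenase of the same superfamily, had signals of 159, 191 and 186 on the shCtrl arrays and 466, 405 and 348 on the shXBP-1s arrays on its brighter probe (probe A_23_P257971, NM_001353). There AKR1C1 rose by 0.91 ± 0.058 on the log2 scale (SE, adjusted p = 1.32e-05), 1.88-fold, and passed under each scaling tried. Its other probe (probe A_24_P152968, NM_001353) read 72.6, 84.1 and 82.7 on the shCtrl arrays and 120.2, 106 and 83.9 on the shXBP-1s arrays. That probe overlapped between groups and had a log2 fold change of 0.086 ± 0.077 (SE, adjusted p = 0.413). AKR1C3, a close relative, had log2 values of 0.17, 0.23 and 0.14 in shCtrl and 0.19, 0.18 and 0.22 in shXBP-1s and a log2 fold change of 0.017 ± 0.045 (SE, adjusted p = 0.798). The AKR1C genes share long stretches of sequence, so which of them a probe reads is uncertain, and AKR1C2 was not measured by name.

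CBR1 is a carbonyl reductase of the short-chain dehydrogenase family and not an aldo-keto reductase. Its log2 values were 3.14, 3.17 and 3.20 in shCtrl and 2.81, 2.85 and 2.91 in shXBP-1s, with no overlap. CBR1 fell by 0.31 ± 0.046 on the log2 scale (SE, adjusted p = 9.10e-04), with -0.29 within the scan, and turned to 0.26 with normexp centred on the median.

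All 4 genes of quinone and xenobiotic handling passed, with NQO1, EPHX1 and UGDH lower, except UGDH with normexp centred on the median, and OSGIN1 higher, except under normexp. Over all tested genes 27.5% fell and 18.9% rose. NQO1, the quinone reductase often read as a marker of NRF2 activity, had signals of 257, 415 and 409.6 on the shCtrl arrays and 303, 289.8 and 238 on the shXBP-1s arrays. The unscaled signals overlapped, with shCtrl replicate 1 dimmer than the other shCtrl arrays. The log2 values were -1.42, -0.87 and -0.88 in shCtrl and -1.70, -1.63 and -1.73 in shXBP-1s and did not overlap. NQO1 fell by 0.63 ± 0.14 on the log2 scale (SE, adjusted p = 0.00797), but the difference within the scan was -0.26, and without shCtrl replicate 1 it was -0.81. The size of the NQO1 change thus depended on which shCtrl arrays were used.

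EPHX1, microsomal epoxide hydrolase, had log2 values of -3.40, -3.26 and -3.42 in shCtrl and -3.88, -3.89 and -4.19 in shXBP-1s. EPHX1 fell by 0.63 ± 0.11 on the log2 scale (SE, adjusted p = 0.00212), with -0.59 within the scan. EPHX1 did not pass under normexp (-0.83, adjusted p = 0.348) or with normexp centred on the median (-0.50, adjusted p = 0.0857), and with quantile normalization after normexp it passed at -0.28. UGDH, which makes the UDP-glucuronate used in conjugation, fell by 0.29 ± 0.071 on the log2 scale (SE, adjusted p = 0.0122), with -0.16 within the scan, where the call was lost (adjusted p = 0.166), and turned to 0.12 with normexp centred on the median. OSGIN1, a stress-induced growth inhibitor, had signals of 71.8, 78.0 and 63.0 on the shCtrl arrays and 130.4, 125 and 112 on the shXBP-1s arrays. OSGIN1 rose by 0.52 ± 0.10 on the log2 scale (SE, adjusted p = 0.00368), with 0.40 within the scan, and turned to -0.13 under normexp.

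Of the 3 heme and iron genes, HMOX1 and FTH1 fell, FTH1 except with normexp centred on the median. Over all tested genes 27.5% fell. HMOX1, the inducible heme oxygenase, had signals of 1974, 2387 and 2212 on the shCtrl arrays and 1828, 1876 and 1961 on the shXBP-1s arrays. Each shXBP-1s array was below each shCtrl array before scaling as well, by a narrow margin. HMOX1 fell by 0.48 ± 0.10 on the log2 scale (SE, adjusted p = 0.00514), with -0.43 within the scan, where the adjusted p was 0.0548. With normexp centred on the median the log2 fold change was -0.037. FTH1, the heavy chain of the iron store ferritin, had 3 probes, with log2 fold changes of -0.37 ± 0.070 (SE, adjusted p = 0.00353), -0.23 ± 0.086 (SE, adjusted p = 0.0616) and -0.19 ± 0.085 (SE, adjusted p = 0.112), and all 3 turned higher with normexp centred on the median. The mean over the 3 probes fell by 0.27 (adjusted p = 0.0212). FTL, the light chain, had -0.055 ± 0.053 (SE, adjusted p = 0.448) and -0.049 ± 0.044 (SE, adjusted p = 0.407) on its 2 probes. FTH1 has many processed copies in the genome, so which copy a probe reads is uncertain.

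Of the superoxide and peroxide enzymes, the mitochondrial SOD2 rose. SOD2, manganese superoxide dismutase (probe A_23_P134176, NM_001024465), had signals of 17370.3, 19182 and 19837 on the shCtrl arrays and 45680.3, 41226 and 38742 on the shXBP-1s arrays. The groups were far apart, and SOD2 rose by 0.88 ± 0.050 on the log2 scale (SE, adjusted p = 7.65e-06), 1.84-fold, with 0.90 within the scan, and passed under each scaling tried. SOD1, the cytosolic copper-zinc enzyme, had log2 values of 4.57, 4.67 and 4.64 in shCtrl and 4.45, 4.51 and 4.62 in shXBP-1s and a log2 fold change of -0.10 ± 0.059 (SE, adjusted p = 0.211). CAT, catalase, had log2 values of 4.10, 3.95 and 4.00 in shCtrl and 3.99, 3.99 and 3.99 in shXBP-1s and -0.028 ± 0.051 (SE, adjusted p = 0.704). The intervals were -0.24 to 0.036 for SOD1 and -0.15 to 0.092 for CAT.

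**Figure D4:**
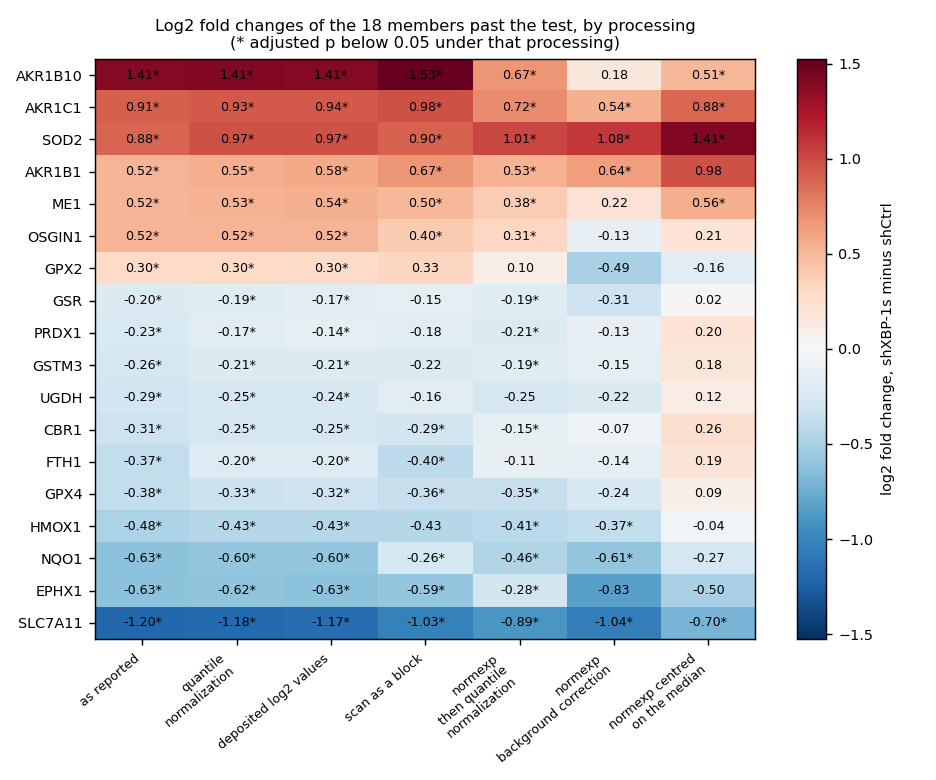
Log2 fold changes (shXBP-1s minus shCtrl) of the 18 members past the test, in rows, under 7 ways of processing the same arrays, in columns, with a star where the adjusted p was below 0.05. Sign held in every column for AKR1B10, AKR1C1, SOD2, AKR1B1, ME1, HMOX1, NQO1, EPHX1 and SLC7A11, and the stars thin out in the columns of normexp without quantile normalization.

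Across the settings, 15 of the 18 members past the test passed in all 6 fits that left out 1 array, and GPX2, GSR and PRDX1 were the others. With the scan as a block 12 of the 18 passed, and GPX2, GSR, GSTM3, HMOX1, PRDX1 and UGDH did not. Of all 27624 tested probes 8692 passed there, against 11516 under the main settings. Quantile normalization and the deposited log2 values kept all 18. The sign was the same under all 5 other scalings for 9 of the 18, and SLC7A11, SOD2 and the brighter AKR1C1 probe passed under all 5.

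A wider list of 79 other genes of the NRF2 network, glutathione, thioredoxin, NADPH and detoxification had 72 tested genes, of which 13 rose, 29 fell and 30 did not pass. That is 18.1% higher and 40.3% lower, with a median log2 fold change of -0.076, against 18.9% higher and 27.5% lower over all tested genes. At least 2-fold, 1 rose and 2 fell, against 2.3% and 2.88% of all genes. Under normexp 10 rose and 11 fell, and with normexp centred on the median 4 rose and 1 fell. Of all 27624 tested probes 4507 and 2060 passed there, against 11516 under the main settings.

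The genes of the wider list that fell with the smallest p were IDH1, NFE2, GLRX, SQSTM1 and TXNIP. IDH1, a cytosolic source of NADPH, had signals of 1883, 2162 and 2201 on the shCtrl arrays and 1414, 1215 and 1093 on the shXBP-1s arrays and fell by 1.02 ± 0.047 on the log2 scale (SE, adjusted p = 3.66e-06). GLRX, glutaredoxin, fell by 0.91 ± 0.055 on the log2 scale (SE, adjusted p = 1.03e-05). SQSTM1, the autophagy receptor p62 that binds KEAP1, had signals of 7539, 7780.2 and 7909 on the shCtrl arrays and 5794, 4825 and 3939.6 on the shXBP-1s arrays and fell by 0.96 ± 0.068 on the log2 scale (SE, adjusted p = 2.04e-05). NFE2, a relative of NRF2 known from blood cells, fell by 0.97 on the log2 scale and TXNIP, which binds thioredoxin, fell by 0.64. ABCC3, an exporter of conjugates, fell by 1.06 ± 0.083 on the log2 scale (SE, adjusted p = 3.60e-05), and its other probe had a log2 fold change of -0.54 ± 0.11 (SE, adjusted p = 0.00653), which is under 2-fold. With normexp centred on the median IDH1 was -0.58, GLRX -0.45, SQSTM1 -0.53, TXNIP -0.14 and the brighter ABCC3 probe -0.60 in log2 fold change, and these 5 did not pass there (adjusted p from 0.427 to 0.800), while TXNIP did not pass under normexp either (-0.48).

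The genes that rose with the smallest p were HMOX2, GSK3B, PRDX4, PIR and SESN3, of which SESN3 turned lower under normexp. HMOX2, the constitutive heme oxygenase, had signals of 1458, 1497 and 1591 on the shCtrl arrays and 4080.4, 3625 and 3218 on the shXBP-1s arrays and rose by 0.99 ± 0.047 on the log2 scale (SE, adjusted p = 4.13e-06), where HMOX1 fell. GSK3B, a kinase whose marking of NRF2 leads to its degradation, rose by 0.86 ± 0.069 on the log2 scale (SE, adjusted p = 3.84e-05). PRDX4, the peroxiredoxin of the endoplasmic reticulum, rose by 0.60 ± 0.053 on the log2 scale (SE, adjusted p = 6.20e-05) without passing with normexp centred on the median (adjusted p = 0.207), and PIR, an iron-binding nuclear protein, rose by 0.60 ± 0.059 on the log2 scale (SE, adjusted p = 1.12e-04). SESN3, a sestrin, rose by 0.78 ± 0.088 on the log2 scale (SE, adjusted p = 2.33e-04) and turned to -0.41 under normexp. UGT1A6, a glucuronosyltransferase that shares exons with the other UGT1A genes, rose by 1.26 ± 0.16 on the log2 scale (SE, adjusted p = 4.72e-04) and on its other probe by 1.57 ± 0.14 (SE, adjusted p = 6.18e-05). Under normexp the brighter probe did not pass (0.40, adjusted p = 0.451), and which UGT1A transcript the probe reads is uncertain.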

How the data were processed

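mRNA was profiled in CAL-27 cells with shXBP-1s (n = 3) and with shCtrl (n = 3), grouped by the labels, 1 array each. Per the file headers the arrays were read with Agilent Feature Extraction 11.0.1.1, and the deposited intensities had background subtracted and spatial trends removed and were not normalized between arrays. The authors also deposited log2 values normalized between arrays, for which the submitters' processing notes name RMA and which were used as an alternative. Cy3 labelling followed a NimbleGen protocol per the labels, although the array is from Agilent.

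From the intensities, spots flagged as outliers (230.0 to 377 per array) were left out, log2 was taken, the 75th percentile of the array was subtracted and replicate spots were averaged per probe. Of 34127 probes, 27624 were tested, those with over 50% of their spots well above background on each array of shCtrl or each array of shXBP-1s, with limma 3.58.1 in R 4.3.3 (lmFit and eBayes with trend, 2-sided, Benjamini-Hochberg over all tested probes). No spot was saturated, and 82.1% to 84.8% of spots per array were well above background. Symbols came from RefSeq accessions without version. A gene stands by its brightest tested probe, and the other probes of the members are given too. An exact permutation test of 3 against 3 arrays cannot go below p = 0.1, so limma's p-values are used. The test was checked on simulated data with planted changes above 2-fold. That check does not cover smaller changes, which most calls here are.

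The members and gene lists were chosen with earlier results of these data known. Named are all members, XBP1, and of the wider list the 5 with the smallest p in each direction and those at least 2-fold. Alternatives were normexp (offset 50, on median spot signals, since no mean signal column is in the files used here), alone, centred on the median or followed by quantile normalization, quantile normalization, the deposited values, other filters, limma without trend, the methods' t-test, a threshold of 0.01, the mean over probes, the replicate or scan as a block, and leaving out each array.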

Additional observations from a re-analysis of the deposited data

How the results depend on the processing

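The 7 counts and the log2 fold changes of the members, 12 genes of the wider list and XBP1 were recomputed under up to 20 other settings, and of 1082 recomputed log2 fold changes 931 kept their direction and side of the threshold, 84 lost the call, 11 gained one and 56 changed sign. Normexp moved the median of all tested probes to -0.41, and normexp centred on the median was chosen after the data were seen. Under normexp 3 member genes rose and 3 fell, 3 member probes rose and 3 fell, and 11 genes of the wider list fell. Of all 27624 tested probes 4507 passed there, against 11516 under the main settings. Centred on the median, 4 member genes rose, 1 fell and 1 passed at least 2-fold, 5 member probes rose and 1 fell, and 4 genes of the wider list rose and 1 fell. There 2060 of all tested probes passed, and 422 at least 2-fold. With quantile normalization after normexp 1 member passed at least 2-fold, where 363 of all tested probes did. With the scan as a block 7 member genes and 8 member probes fell, where 8692 of all tested probes passed in either direction. By the methods' t-test with adjustment 7 member genes and 9 member probes fell, and at an adjusted p below 0.01 9 member probes fell. Of all tested probes 9209 passed by that t-test and 7832 at the threshold of 0.01, in either direction. Leaving out 1 array gave 6 to 7 member genes that rose and 9 to 12 that fell, where 8632 to 12842 of all probes tested in those fits passed. Normexp alone and normexp centred on the median use the same corrected signals and subtract a different single value from each array. Every log2 fold change therefore moves by the same amount between them. The cause of the other differences was not tested.

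Log2 fold changes that changed sign were, under normexp, AKR1C1 -0.40, CAT 0.13, FTL 0.038 and 0.055, GCLM 0.077, GPX2 -0.49, MAFG -0.22, NFE2L2 -0.60, OSGIN1 -0.13, SESN3 -0.41, SOD1 0.041 and TKT 0.22. With normexp centred on the median they were AKR1C1 -0.060, CAT 0.47, CBR1 0.26, CUL3 0.28, FTH1 0.19 and 0.28 and 0.21, FTL 0.37 and 0.39, GCLM 0.41, GPX2 -0.16, GPX4 0.091, GSR 0.022, GSTM3 0.18, NFE2L2 -0.26, PRDX1 0.29 and 0.20, SESN3 -0.074, SOD1 0.38, SRXN1 0.32, TKT 0.55, TXNRD1 0.30 and UGDH 0.12. With quantile normalization after normexp they were CAT 0.027, SOD1 0.019 and TKT 0.13, with quantile normalization alone CAT 0.0013, FTL 0.0015, GCLM 0.028 and SOD1 0.016, on the deposited log2 values CAT 0.0048, FTL 0.0020, GCLM 0.028 and TKT 0.010, and with the scan as a block KEAP1 -0.0048, NFE2L2 -0.14 and TKT 0.10. Leaving out 1 array at a time gave ranges that crossed 0 for CAT (-0.060 to 0.013), the brighter MAFG probe (-0.0098 to 0.17), AKR1C3 (-0.0024 to 0.042), GCLC (-0.11 to 0.19), NFE2L2 (-0.033 to 0.20) and TXN (-0.025 to 0.080).

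The replicate numbers did not pair the samples, since the deviations of same-numbered arrays correlated at -0.016, 0.12 and -0.12. With the replicate number as a block 6 member genes rose and 11 fell, where 11116 of all tested probes passed in either direction. The number of arrays limits the precision, 1 control array carries every within-scan value, and signals near background, as for the dim CUL3 probe, are the least certain.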

Other observations

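The small MAF and BACH genes of the wider list, which encode partners and competitors of NRF2 at the antioxidant response element, were looked at after their values were seen. MAFF signals were 555, 584 and 601 on the shCtrl arrays and 909, 811 and 703 on the shXBP-1s arrays, and MAFF rose by 0.20 ± 0.046 on the log2 scale (SE, adjusted p = 0.00979), without passing under normexp (0.14), with normexp centred on the median (0.48) or with the scan as a block (0.17). MAFK signals were 551, 611 and 613 on the shCtrl arrays and 1029.9, 923 and 791 on the shXBP-1s arrays, and MAFK rose by 0.35 ± 0.044 on the log2 scale (SE, adjusted p = 4.07e-04). MAFF and MAFK were higher under all 5 other scalings, and MAFK did not pass with normexp centred on the median (0.62). BACH1, a repressor at these elements, differed by probe. Its brighter probe had signals of 5569, 5979.7 and 6016 on the shCtrl arrays and 6358, 5956 and 5433 on the shXBP-1s arrays and fell by 0.26 ± 0.044 on the log2 scale (SE, adjusted p = 0.00208), and turned to 0.19 with normexp centred on the median. Its dim probe had signals of 12.7, 9.66 and 9.15 on the shCtrl arrays and 32.5, 25.3 and 21.8 on the shXBP-1s arrays and rose by 1.06 ± 0.19 on the log2 scale (SE, adjusted p = 0.00297), and turned to -0.64 under normexp. BACH2, its relative, rose by 0.99 ± 0.12 on the log2 scale (SE, adjusted p = 3.21e-04) and turned to -0.033 under normexp.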
